A study of Mus musculus with 12 samples.

Results

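The DNA replication genes described here are 35 mouse genes that act in the G1/S transition and in copying the genome. They were chosen by name, with earlier results of these data known, and all 35 were found, 1 row each, among the 56748 genes of the deposited table. Each belongs to 1 of 7 roles: origin licensing, helicase activation, polymerases, sliding clamp and clamp loader, lagging strand maturation, nucleotide supply, and G1/S control. The libraries came from the kidneys of male mice, 8 to 12 weeks old, in 4 groups of 3. In cKO IR and cKO sham, the proximal tubular cells of the kidney carried a deletion of Krt20, a filament-forming keratin. WT IR and WT sham are the wild type groups. The sources used here name neither the driver of the deletion nor the strain. In IR (ischemia/reperfusion) the blood supply of both kidneys was clamped for 30 min under anesthesia, and tissue was taken 24 h after release. In sham the same surgery was done with no clamp. The series asks what KRT20 does in acute kidney injury.

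The libraries held 13187531 to 15962303 reads in genes. Values are FPKM, fragments scaled to gene model length and library size. Levels of different genes can be set side by side only as far as those lengths hold, which was not tested. The size used was 0.933 to 1.13 times the sum of reads in genes. It was lower, relative to that sum, in every sham library than in every IR library. Scaling to the sums instead was run as an alternative. Krt20 itself was at 28.2, 35.6 and 47.01 FPKM in cKO IR, against 83.95, 64.9 and 59.9 FPKM in WT IR. It was at 0.0343, 0 and 0 FPKM in cKO sham, against 0.0384, 0 and 0.157 FPKM in WT sham, so the sham labels could not be checked with it. The cKO IR libraries all lay below the WT IR libraries without reaching the sham level, and the difference of −0.91 (SE 0.17, adjusted p = 0.132) on the log2 scale was not called. Reads of the deleted part were not given apart from those of the rest. Kidney markers were abundant in every library: Umod of the thick ascending limb was at 347 to 1269.8 FPKM. Whether the 3 libraries of a group are separate animals is not in the labels, so p-values reflect library-to-library spread alone, which may be technical.

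Replication starts from origins that are licensed in G1. Cdt1 and Cdc6 load the ring of Mcm2 to Mcm7 onto DNA, and in S phase Cdc45, the GINS proteins and Mcm10 turn that ring into a running helicase. Primase and the polymerases then copy both strands, held on DNA by the clamp Pcna. The cyclin E genes and E2f1 drive entry into S phase, and E2F factors are known to activate many genes of this set. Tubular cells of the adult kidney rarely divide and are known to re-enter the cell cycle after ischemic injury.

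The letters of E2F recognition occur near the start of many of these genes, and the 7 stretches shown here are those that lie wholly upstream of the start. Promoter windows of 300 bases, 250 before to 50 after the start, were available from RefSeq (GRCm38.p6) for 28 of the 35 members. TTTCCCGC, TTTCGCGC or TTTGGCGC on either strand was in a window of 12 of the 28 members (42.9%), against 2.12% of all 27025 genes with a window and 3.91% of the 9295 of them that averaged 1 FPKM or more. The 12 are Cdc6, Cdt1, Gins3, Lig1, Mcm3, Mcm5, Mcm6, Mcm7, Pola1, Pold1, Rfc3 and Uhrf1. CCAAT on either strand was in a window of 16 of the 28 members (57.1%), against 41.1% of all genes with a window. These matches describe letters and name no binding site. In the stretches below, written 5′ to 3′ along the gene's own strand with 20 bases on each side, capitals mark the letters of the first match, and the position is that of the first matched base from the start. In Mcm5 and Mcm6 a pair of matches on opposite strands overlaps, which gives a longer run of capitals.
Mcm5 (chr8:75109336-75109387, plus strand, position −153): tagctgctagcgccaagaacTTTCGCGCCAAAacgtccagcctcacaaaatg
Mcm6 (chr1:128359784-128359835, minus strand, position −110): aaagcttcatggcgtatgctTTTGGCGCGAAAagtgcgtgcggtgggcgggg
Mcm7 (chr5:138172021-138172068, minus strand, position −165): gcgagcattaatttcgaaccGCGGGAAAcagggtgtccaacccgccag
Cdc6 (chr11:98907993-98908040, plus strand, position −138): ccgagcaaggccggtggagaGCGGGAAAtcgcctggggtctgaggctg
Gins3 (chr8:95633498-95633545, plus strand, position −41): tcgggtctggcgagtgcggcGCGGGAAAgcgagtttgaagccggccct
Uhrf1 (chr17:56304108-56304155, plus strand, position −185): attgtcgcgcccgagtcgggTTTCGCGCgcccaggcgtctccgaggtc
Pola1 (chrX:93632266-93632313, minus strand, position −138): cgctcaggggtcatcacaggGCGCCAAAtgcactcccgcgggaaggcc

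The replication genes were higher after injury in both genotypes, and every member had a smaller mean difference in cKO than in WT, which the test of that difference called for Mcm5, a call that held in 10 of 22 alternative fits. A member was tested if it averaged 1 FPKM or more across the 12 libraries, which held for 30 of 35. Of these, Cdc45, Gins2, Mcm10, Pola1 and Ccne2 had sham means under 1 FPKM in both genotypes and passed through the IR groups. Calls were made at an adjusted p under 0.05 in limma on log2(FPKM + 1), with adjustment over all 12868 tested genes. In cKO IR against cKO sham, 26 of the 30 were higher and 0 were lower. Among all tested genes, 27.8% were higher and 23.1% lower in that comparison. In WT IR against WT sham, 30 of 30 were higher and 0 were lower, against 22.6% higher and 19.5% lower among all tested genes. The members' median log2 difference was 0.77 in cKO and 1.26 in WT, while that of all tested genes was 0.02 in cKO and 0.01 in WT. In bulk tissue, more cells of a kind and more RNA per cell cannot be told apart.

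The ratio of the IR mean to the sham mean ranged over the 35 members from 0.902 to 8.28 in cKO, with a median of 2.42. It ranged from 1.25 to 29.3 in WT, with a median of 3.81. This ratio reached 2 in 20 members in cKO and in 28 members in WT, and it was smaller in cKO than in WT for 35 of 35. The share of all genes with such ratios was not counted. On the log2 scale, 7055 of all 12868 tested genes had the larger difference in cKO. In cKO the IR libraries all lay above the sham libraries in 30 of the 35, where this held for 32.6% of genes that averaged 1 FPKM or more. In WT it held for 35 of 35, against 28% of genes.

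**Figure D1:**
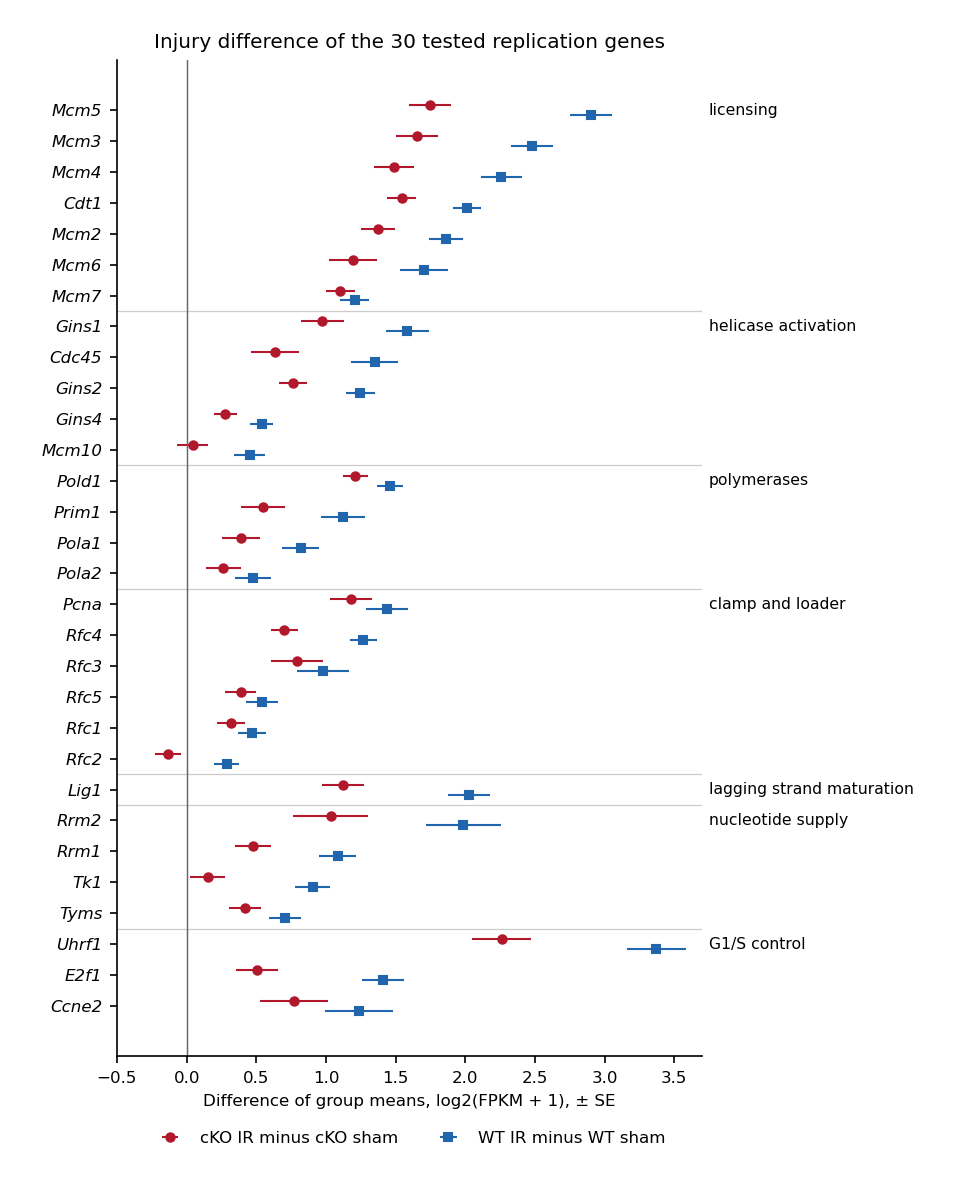
Difference between IR and sham on the log2(FPKM + 1) scale for the 30 tested members, with red circles for cKO and blue squares for WT. Horizontal bars are ± 1 SE of the limma fit over 12 libraries, and genes are grouped by role. Every blue square lies to the right of its red circle, and Rfc2 in cKO, at −0.13, is the one point left of 0.

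Licensing genes rose in both genotypes: 7 of 7 tested were higher in cKO and 7 of 7 in WT. Their median log2 differences, 1.49 in cKO and 2.02 in WT, were the highest of the roles with more than 1 tested member. Gene positions are given as in the deposited table, which names no build, and they are not on the build of the promoter windows above. Cdt1 (ENSMUSG00000006585, chromosome 8, 123294754 to 123300293, plus strand), the factor that brings the MCM ring to origins, had 6.86, 8.44 and 6.91 FPKM in cKO IR, against 1.85, 1.93 and 1.84 FPKM in cKO sham. It had 9.21, 9.28 and 11.6 FPKM in WT IR, against 1.79, 1.54 and 1.83 FPKM in WT sham. The sham libraries of both genotypes lay close together, and every IR library stood far above them. Cdt1 differed by 1.54 (SE 0.10, adjusted p = 3.29e-06) in cKO and by 2.02 (SE 0.10, adjusted p = 1.62e-06) in WT.

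Mcm5 (ENSMUSG00000005410, chromosome 8, 75836197 to 75855067, plus strand), a subunit of the replicative helicase ring, had 8.82, 12.3 and 9.66 FPKM in cKO IR, against 2.22, 2.65 and 2.13 FPKM in cKO sham. It had 14.8, 12.9 and 19.2 FPKM in WT IR, against 1.37, 1.32 and 0.926 FPKM in WT sham. The order of the 4 groups was complete: each WT sham library lay below each cKO sham library, and each cKO IR library below each WT IR library. For Mcm5 the difference was 1.75 (SE 0.15, adjusted p = 1.55e-05) in cKO and 2.9 (SE 0.15, adjusted p = 2.24e-06) in WT, a ratio of means of 4.39 in cKO and 12.97 in WT. Mcm3 (ENSMUSG00000041859, chromosome 1, 20873192 to 20890536, minus strand), another ring subunit, had 7.64, 10.5 and 8.96 FPKM in cKO IR, against 2.06, 2.44 and 2.01 FPKM in cKO sham. It had 12.2, 10.6 and 15.1 FPKM in WT IR, against 1.697, 1.59 and 1.05 FPKM in WT sham. Mcm3 showed the same order of groups as Mcm5. Its difference came to 1.65 (SE 0.15, adjusted p = 1.71e-05) in cKO and 2.48 (SE 0.15, adjusted p = 5.54e-06) in WT.

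The other ring subunits rose as well. Mcm2 was at 7.08 to 8.65 FPKM in cKO IR, 2.03 to 2.56 in cKO sham, 9.12 to 12.3 in WT IR and 1.799 to 2.26 in WT sham. Mcm4 was at 9.38 to 11.7 FPKM in cKO IR, 2.62 to 3.33 in cKO sham, 12.4 to 19.02 in WT IR and 2.18 to 2.31 in WT sham. For both, the IR groups lay above the sham groups and cKO IR lay below WT IR. Mcm6 was at 8.19 to 12.1 FPKM in cKO IR, 3.41 to 4.63 in cKO sham, 13.9 to 21.7 in WT IR and 4.33 to 4.96 in WT sham. Mcm7 was at 8.54 to 10.99 FPKM in cKO IR, 3.797 to 4.48 in cKO sham, 11.9 to 13.9 in WT IR and 4.41 to 5.42 in WT sham. These were the ring subunits with the highest sham levels. Mcm7 had the closest responses of the ring in the 2 genotypes, a log2 difference of 1.1 in cKO and 1.21 in WT. Its gene model overlaps Cops6 and Ap4m1 on the other strand, and the sources used here do not say whether counting used strand. Cdc6, the ATPase that works with Cdt1, did not pass the filter. Its levels, with the reads per library behind them, were 1.16 to 1.36 FPKM (97 to 110 reads) in cKO IR, 0.184 to 0.329 FPKM (14 to 25 reads) in cKO sham, 1.48 to 3.37 FPKM (114 to 262 reads) in WT IR and 0.0721 to 0.184 FPKM (5 to 13 reads) in WT sham.

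**Figure D2:**
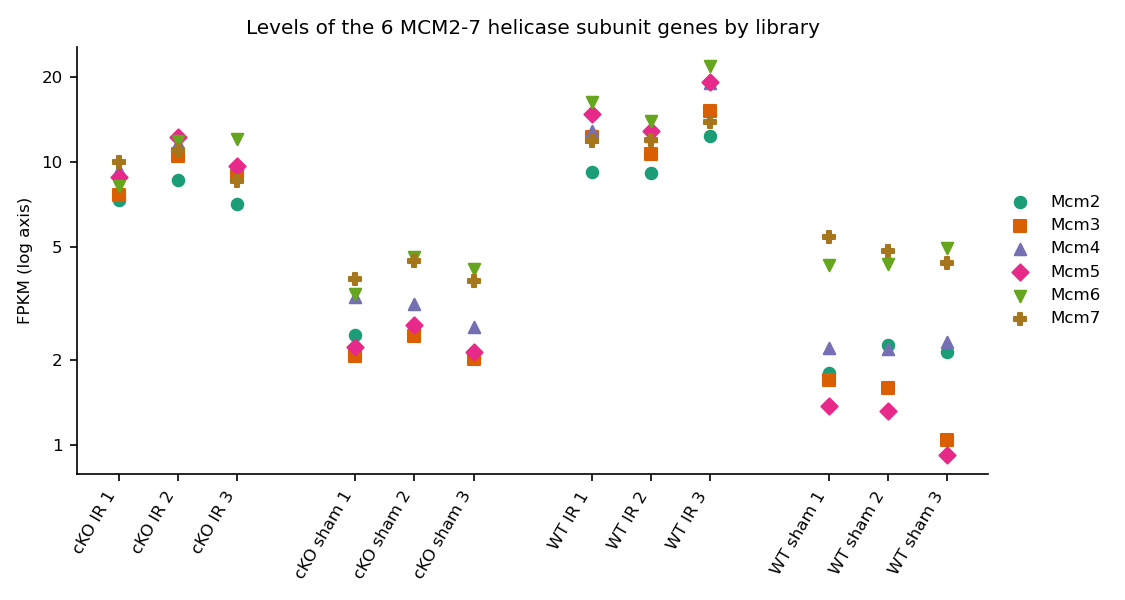
FPKM, on a log axis, of the genes of the 6 subunits of the MCM ring in each of the 12 libraries, grouped as cKO IR, cKO sham, WT IR and WT sham. The 6 genes lie closest together in the IR libraries and farthest apart in WT sham, where Mcm5 is lowest at 0.926 to 1.37 FPKM.

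Genes that activate the helicase rose less evenly: 4 of 5 tested were higher in cKO and 5 of 5 in WT. Gins1 (ENSMUSG00000027454, chromosome 2, 150747320 to 150773200, plus strand), a subunit of the GINS complex, had 3.55, 2.86 and 2.82 FPKM in cKO IR, against 0.959, 0.817 and 1.49 FPKM in cKO sham. It had 3.995, 4.96 and 3.597 FPKM in WT IR, against 0.488, 0.959 and 0.746 FPKM in WT sham. Gins1 differed by 0.97 (SE 0.15, adjusted p = 0.000458) in cKO and 1.58 (SE 0.15, adjusted p = 5.50e-05) in WT, with no overlap between IR and sham in either genotype. Gins2 (ENSMUSG00000031821, chromosome 8, 121305372 to 121316043, minus strand), its partner in the complex, had 1.48, 1.64 and 1.55 FPKM in cKO IR, against 0.564, 0.554 and 0.402 FPKM in cKO sham. It had 2.02, 1.92 and 2.27 FPKM in WT IR, against 0.253, 0.389 and 0.239 FPKM in WT sham. All of its sham libraries were under 1 FPKM and all of its IR libraries above. Gins2 differed by 0.76 (SE 0.10, adjusted p = 0.000167) in cKO and by 1.25 (SE 0.10, adjusted p = 2.35e-05) in WT.

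Cdc45 (ENSMUSG00000000028, chromosome 16, 18599197 to 18630737, minus strand), which joins GINS on the ring, had 1.46, 2.18 and 1.61 FPKM in cKO IR, against 0.471, 0.981 and 0.8805 FPKM in cKO sham. It had 2.08, 2.69 and 3.67 FPKM in WT IR, against 0.528, 0.513 and 0.387 FPKM in WT sham. The lowest WT IR library lay below the highest cKO IR library, so those groups overlapped. Cdc45 differed by 0.63 (SE 0.17, adjusted p = 0.0105) in cKO and 1.35 (SE 0.17, adjusted p = 0.000238) in WT. Gins4, the most abundant GINS gene in every library, was at 10.4 to 11.8 FPKM in cKO IR, 8.06 to 9.84 in cKO sham, 12.9 to 13.5 in WT IR and 8.07 to 9.17 in WT sham, and was called in both injury comparisons. Mcm10, which helps to start unwinding, was the helicase gene with the least response in cKO. Its range was 0.903 to 1.101 FPKM in cKO IR, 0.847 to 1.02 in cKO sham, 1.45 to 1.84 in WT IR and 0.818 to 1.17 in WT sham. Its log2 difference was 0.043 (SE 0.11, adjusted p = 0.764) in cKO, not called, and 0.45 (SE 0.11, adjusted p = 0.00740) in WT. Gins3 stayed under the filter, with 0.907 to 1.05 FPKM (38 to 44 reads) in cKO IR, 0.463 to 0.8103 FPKM (19 to 32 reads) in cKO sham, 0.912 to 1.69 FPKM (42 to 68 reads) in WT IR and 0.585 to 0.656 FPKM (21 to 25 reads) in WT sham.

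Among the polymerase genes, 3 of 4 tested were higher in cKO and 4 of 4 in WT, and Pold1 had the largest difference of the 4 in both. Pold1 (ENSMUSG00000038644, chromosome 7, 44182170 to 44198273, minus strand), the catalytic subunit of DNA polymerase delta, had 5.09, 6.54 and 5.86 FPKM in cKO IR, against 2.08, 1.97 and 1.78 FPKM in cKO sham. It had 6.499, 5.73 and 6.498 FPKM in WT IR, against 1.55, 1.57 and 1.77 FPKM in WT sham. The IR groups of the genotypes overlapped, and each cKO sham library lay above each WT sham library. Pold1 differed by 1.21 (SE 0.091, adjusted p = 6.80e-06) in cKO and by 1.46 (SE 0.091, adjusted p = 5.83e-06) in WT. Prim1 (ENSMUSG00000025395, chromosome 10, 127851037 to 127865906, plus strand), the catalytic subunit of primase, had 3.66, 3.73 and 2.36 FPKM in cKO IR, against 2.15, 1.903 and 1.596 FPKM in cKO sham. It had 4.94, 3.66 and 5.69 FPKM in WT IR, against 1.68, 1.63 and 1.56 FPKM in WT sham. One cKO IR library was well below the others, yet above every sham library. Prim1 differed by 0.55 (SE 0.16, adjusted p = 0.0140) in cKO and by 1.12 (SE 0.16, adjusted p = 0.000408) in WT.

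Pola1 (ENSMUSG00000006678, chromosome X, 92348373 to 92675761, minus strand), the catalytic subunit of polymerase alpha, had 1.299, 1.65 and 1.27 FPKM in cKO IR, against 0.847, 0.851 and 0.794 FPKM in cKO sham. It had 1.84, 1.49 and 2.61 FPKM in WT IR, against 0.714, 0.628 and 0.668 FPKM in WT sham. The rise was called in both genotypes, by 0.39 (SE 0.13, adjusted p = 0.0314) in cKO and 0.82 (SE 0.13, adjusted p = 0.000927) in WT. Pola2, its accessory subunit, was at 1.63 to 1.88 FPKM in cKO IR, 1.09 to 1.64 in cKO sham, 1.58 to 2.46 in WT IR and 1.04 to 1.196 in WT sham. The cKO groups of Pola2 overlapped, and its difference of 0.26 (SE 0.13, adjusted p = 0.109) in cKO was not called, while that of 0.47 (SE 0.13, adjusted p = 0.0128) in WT was. Pole, the catalytic subunit of polymerase epsilon, was under the filter, with 0.712 to 1.27 FPKM (127 to 220 reads) in cKO IR, 0.209 to 0.499 FPKM (34 to 81 reads) in cKO sham, 1.38 to 1.79 FPKM (262 to 296 reads) in WT IR and 0.173 to 0.2095 FPKM (26 to 32 reads) in WT sham.

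The clamp rose strongly and the loader subunits differed among themselves: 5 of 6 were higher in cKO and 6 of 6 in WT. Pcna (ENSMUSG00000027342, chromosome 2, 132091082 to 132095234, minus strand), the sliding clamp and the most abundant member in every IR library, had 20.7, 22.1 and 19.6 FPKM in cKO IR, against 9.001, 8.34 and 8.49 FPKM in cKO sham. It had 22.1, 21.4 and 32.6 FPKM in WT IR, against 8.702, 7.18 and 9.96 FPKM in WT sham. Apart from WT IR 3, the IR libraries of both genotypes lay within a narrow band. Pcna differed by 1.18 (SE 0.15, adjusted p = 0.000124) in cKO and 1.44 (SE 0.15, adjusted p = 8.25e-05) in WT. A processed pseudogene, Pcna-ps2, had at most 0.663 FPKM in a library, and the sources used here do not say how shared reads were counted.

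Rfc4 (ENSMUSG00000022881, chromosome 16, 22932693 to 22946487, minus strand), a small subunit of the clamp loader, had 4.61, 5.23 and 4.73 FPKM in cKO IR, against 2.84, 2.33 and 2.64 FPKM in cKO sham. It had 5.83, 5.93 and 7.11 FPKM in WT IR, against 2.27, 2.08 and 1.72 FPKM in WT sham. Its 4 groups did not overlap and had the same order as those of Mcm5. Rfc4 differed by 0.70 (SE 0.099, adjusted p = 0.000218) in cKO and by 1.27 (SE 0.099, adjusted p = 1.74e-05) in WT. Rfc3 (ENSMUSG00000033970, chromosome 5, 151566221 to 151574707, minus strand), another small subunit, had 2.79, 3.58 and 2.403 FPKM in cKO IR, against 0.933, 1.14 and 1.75 FPKM in cKO sham. It had 2.62, 2.797 and 4.33 FPKM in WT IR, against 0.923, 1.44 and 1.04 FPKM in WT sham. Within each surgery the genotypes overlapped. Rfc3 differed by 0.79 (SE 0.19, adjusted p = 0.00470) in cKO and by 0.98 (SE 0.19, adjusted p = 0.00205) in WT.

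Rfc1, the large loader subunit, was at 7.53 to 7.65 FPKM in cKO IR, 5.63 to 6.19 in cKO sham, 7.31 to 10.3 in WT IR and 5.35 to 6.25 in WT sham. Rfc5 was at 3.46 to 4.402 FPKM in cKO IR, 2.49 to 2.87 in cKO sham, 3.72 to 5.35 in WT IR and 2.73 to 2.88 in WT sham. Both were called higher in both genotypes with log2 differences of at most 0.54. Rfc2 was the member with a cKO IR mean below its cKO sham mean: it had 5.44, 6.82 and 5.52 FPKM in cKO IR, against 6.32, 6.49 and 6.89 FPKM in cKO sham. It had 7.63, 7.46 and 6.996 FPKM in WT IR, against 5.66, 6.61 and 5.35 FPKM in WT sham. The cKO groups overlapped, and the difference of −0.13 (SE 0.093, adjusted p = 0.256) was not called, whereas 0.29 (SE 0.093, adjusted p = 0.0295) in WT was. Rfc4 overlaps the abundant gene Eif4a2 and Rfc5 overlaps Wsb2 on the other strand, at up to 72.9 and 36.2 FPKM, so reads of those partners could enter their values. In all, 16 of the 35 members overlap another annotated gene, 14 of them on the other strand.

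Of the 2 members of lagging strand maturation, Lig1 rose in both genotypes and Fen1 was too low to pass the filter. Lig1 (ENSMUSG00000056394, chromosome 7, 13011239 to 13045350, plus strand), the ligase that joins Okazaki fragments, had 5.004, 7.12 and 5.56 FPKM in cKO IR, against 2.27, 2.52 and 1.69 FPKM in cKO sham. It had 7.999, 7.44 and 9.57 FPKM in WT IR, against 1.07, 1.65 and 1.16 FPKM in WT sham. Lig1 had the same complete order of groups as Mcm5. It differed by 1.12 (SE 0.15, adjusted p = 0.000161) in cKO and 2.03 (SE 0.15, adjusted p = 1.35e-05) in WT. Fen1, the nuclease that trims the ends of those fragments, had 0.347 to 0.642 FPKM (13 to 24 reads) in cKO IR, 0.136 to 0.397 FPKM (5 to 14 reads) in cKO sham, 0.445 to 0.534 FPKM (16 to 22 reads) in WT IR and 0.153 to 0.249 FPKM (5 to 8 reads) in WT sham. Its gene model overlaps Tmem258 on the other strand, at up to 22.2 FPKM.

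Genes of nucleotide supply rose in 3 of 4 cases in cKO and 4 of 4 in WT. Rrm1 (ENSMUSG00000030978, chromosome 7, 102090902 to 102118978, plus strand), the large subunit of ribonucleotide reductase, had 2.54, 3.38 and 2.62 FPKM in cKO IR, against 1.88, 1.92 and 1.48 FPKM in cKO sham. It had 3.77, 3.32 and 4.96 FPKM in WT IR, against 1.37, 1.45 and 1.23 FPKM in WT sham. Rrm1 differed by 0.48 (SE 0.13, adjusted p = 0.0113) in cKO and by 1.09 (SE 0.13, adjusted p = 0.000186) in WT, and the genotypes overlapped after IR. Rrm2 (ENSMUSG00000020649, chromosome 12, 24758240 to 24764145, plus strand), the small subunit that makes the enzyme active in S phase, had 4.47, 8.19 and 6.87 FPKM in cKO IR, against 2.38, 3.85 and 1.81 FPKM in cKO sham. It had 6.83, 9.296 and 14.3 FPKM in WT IR, against 1.55, 1.92 and 1.66 FPKM in WT sham. Its libraries were spread widely within both IR groups. Rrm2 differed by 1.03 (SE 0.27, adjusted p = 0.00843) in cKO and by 1.99 (SE 0.27, adjusted p = 0.000337) in WT.

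Tk1 (ENSMUSG00000025574, chromosome 11, 117706352 to 117716918, minus strand), the thymidine kinase of dividing cells, had 2.95, 4.04 and 2.83 FPKM in cKO IR, against 3.11, 3.19 and 2.23 FPKM in cKO sham. It had 5.102, 5.92 and 5.23 FPKM in WT IR, against 2.42, 2.28 and 2.58 FPKM in WT sham. In cKO its groups overlapped, and each cKO IR library lay below each WT IR library. Tk1 differed by 0.15 (SE 0.13, adjusted p = 0.345) in cKO, which was not called, and by 0.90 (SE 0.13, adjusted p = 0.000414) in WT. Its gene model overlaps Afmid on the other strand, at up to 11.7 FPKM. Tyms, which makes thymidylate, was called in both genotypes. It had 2.65 to 3.59 FPKM in cKO IR, 1.79 to 2.35 in cKO sham, 3.33 to 4.21 in WT IR and 1.82 to 2.17 in WT sham.

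Genes of G1/S control included the member with the largest injury difference in either genotype. Uhrf1 (ENSMUSG00000001228, chromosome 17, 56610321 to 56630486, plus strand), which brings the maintenance DNA methyltransferase to newly copied DNA, had 7.83, 12.8 and 7.74 FPKM in cKO IR, against 1.04, 1.47 and 0.918 FPKM in cKO sham. It had 11.97, 13.2 and 19.05 FPKM in WT IR, against 0.765, 0.39 and 0.354 FPKM in WT sham. The IR mean was 8.28 times the sham mean in cKO and 29.3 times in WT. Uhrf1 differed by 2.26 (SE 0.21, adjusted p = 2.08e-05) in cKO and 3.37 (SE 0.21, adjusted p = 5.83e-06) in WT. E2f1 (ENSMUSG00000027490, chromosome 2, 154401327 to 154411812, minus strand), the transcription factor whose recognition letters were searched above, had 2.48, 3.44 and 2.85 FPKM in cKO IR, against 1.34, 2.29 and 1.696 FPKM in cKO sham. It had 4.14, 4.84 and 5.21 FPKM in WT IR, against 1.46, 1.14 and 0.885 FPKM in WT sham. Every cKO IR library lay below every WT IR library and above every cKO sham library. E2f1 differed by 0.51 (SE 0.15, adjusted p = 0.0158) in cKO and by 1.41 (SE 0.15, adjusted p = 8.74e-05) in WT.

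Ccne2 (ENSMUSG00000028212, chromosome 4, 11191351 to 11204779, plus strand), one of the cyclin E genes, had 1.72, 1.85 and 1.46 FPKM in cKO IR, against 0.491, 0.709 and 0.5103 FPKM in cKO sham. It had 2.002, 1.84 and 5.12 FPKM in WT IR, against 0.636, 0.416 and 0.712 FPKM in WT sham. WT IR 3 was far above every other library. Ccne2 differed by 0.77 (SE 0.24, adjusted p = 0.0223) in cKO and by 1.24 (SE 0.24, adjusted p = 0.00250) in WT. Ccne1, the other cyclin E gene, was under the filter, with 0.8698 to 1.58 FPKM (37 to 65 reads) in cKO IR, 0.206 to 0.372 FPKM (8 to 15 reads) in cKO sham, 1.53 to 3.39 FPKM (60 to 134 reads) in WT IR and 0.13 to 0.227 FPKM (5 to 8 reads) in WT sham.

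**Figure D3:**
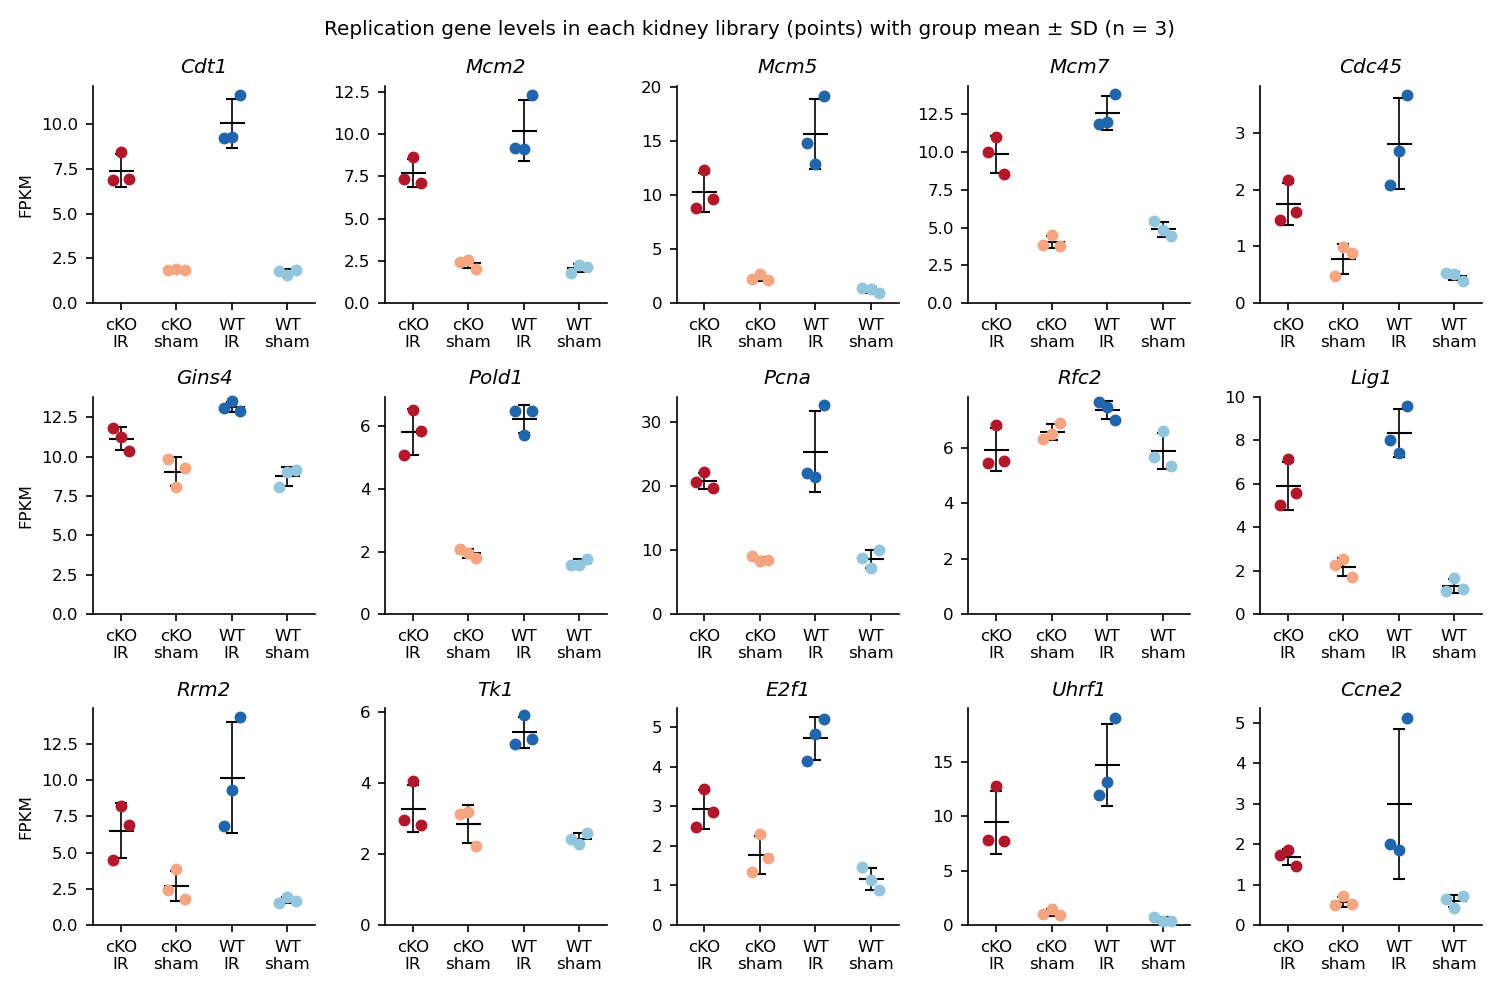
FPKM of 15 members in each library (points) with the group mean and SD (n = 3 each), in the order cKO IR, cKO sham, WT IR and WT sham. Each panel has its own axis from 0. In Mcm5 and Lig1 the 4 groups do not overlap, while Rfc2 and Tk1 show overlapping cKO groups.

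With the filter lowered to a mean of 0.1 FPKM, 20512 genes and all 35 members were tested. In cKO, 29 of 35 were then higher after IR, where 18.7% of all genes were, and in WT 35 of 35 were, where 15% of all genes were. Of the 5 low members, Ccne1, Cdc6 and Pole were called in cKO, with log2 differences of 0.81 (adjusted p = 0.00850), 0.87 (adjusted p = 0.00350) and 0.55 (adjusted p = 0.00463). Fen1 and Gins3 were not called in cKO, at 0.19 (adjusted p = 0.184) and 0.33 (adjusted p = 0.0676). In WT the same 5 were called, from 0.31 (adjusted p = 0.0435) for Fen1 to 1.45 (adjusted p = 0.000317) for Cdc6.

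Several calls of the smaller differences rested on single libraries or on the filter. Leaving out cKO IR 2 ended the cKO calls of Ccne2, E2f1, Pola1, Prim1, Rfc1 and Rfc5. Leaving out cKO IR 1 ended those of Ccne2, Gins4, Prim1 and Rfc1, and leaving out cKO IR 3 that of Rfc1. Without cKO sham 1 the calls of Ccne2, E2f1, Pola1, Rfc1 and Rfc5 were lost, without cKO sham 2 those of Gins4, Pola1 and Rfc1, and without cKO sham 3 those of Ccne2, Pola1 and Prim1. Over the 23 fits run, the highest values were Ccne2 (adjusted p = 0.0637), E2f1 (adjusted p = 0.0663), Gins4 (adjusted p = 0.0725), Pola1 (adjusted p = 0.111), Prim1 (adjusted p = 0.0551), Rfc1 (adjusted p = 0.0782) and Rfc5 (adjusted p = 0.0657). With no filter on low values, the cKO calls of Ccne2, Pola1 and Rfc1 were lost as well. In WT, the call of Rfc2 was lost with no filter, with only the 2 groups compared in the fit, and without WT sham 1, WT sham 3, WT IR 1 or WT IR 2, with adjusted p up to 0.110, and that of Pola2 without WT IR 3, at 0.0504. All 7 licensing members that were tested were called in both genotypes in all 23 fits.

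After injury the replication genes stood lower in cKO than in WT, but no single member passed the test across all genes. The cKO IR mean was below the WT IR mean in 35 of 35 members, with a median ratio of 0.712. Of all 12868 tested genes, 7268 had a positive log2 difference in cKO IR against WT IR. The libraries of the 2 IR groups did not overlap in 18 of the 35, where cKO IR lay below WT IR, against 5.84% of genes that averaged 1 FPKM or more. Without cKO IR 2 this count was 27, against 10.2% of genes in the same libraries. It was 24 without WT IR 1 (9.05% of genes) and 24 without WT IR 2 (9.66% of genes). It was 19 without cKO IR 1 (9.04% of genes), 19 without cKO IR 3 (9.74% of genes) and 18 without WT IR 3 (12.7% of genes). In the fit without WT IR 3, the members' median log2 difference was −0.27, and 2 of 30 members were positive. In limma 0 of 30 were called in either direction in cKO IR against WT IR, with 0% of all tested genes called higher and 0% lower. At an unadjusted p under 0.05, 20 of the 30 were lower, against 5.25% of all tested genes, and voom on the recovered reads called 0 of the 30. The members' median log2 difference was −0.37, and that of all tested genes was 0.03. The largest differences were −0.64 (SE 0.17, adjusted p = 0.175) for Mcm6, −0.60 (SE 0.21, adjusted p = 0.241) for Uhrf1 and −0.60 (SE 0.13, adjusted p = 0.149) for Tk1. Pold1 had the smallest, −0.088 (SE 0.091, adjusted p = 0.692).

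Before injury the direction was the other way for most members. In cKO sham against WT sham, 29 of 35 had the higher mean in cKO sham, with a median ratio of 1.19. Of all 12868 tested genes, 6433 had a positive log2 difference in that comparison. The groups did not overlap in 11 of 35, with cKO sham above, against 13% of genes that averaged 1 FPKM or more. Leaving out 1 library at a time gave 12 to 18, against 16.9% to 19.4% of genes, and the highest count, without cKO sham 3, stood against 18.7% of genes. In limma 0 of 30 were called, against 0.847% of all tested genes called higher and 0.256% lower. At an unadjusted p under 0.05, 6 of 30 were higher, against 6.36% of all genes, and voom called 0. Mcm5 had the largest difference, 0.60 (SE 0.15, adjusted p = 0.115), followed by Uhrf1 at 0.51 (SE 0.21, adjusted p = 0.370) and Lig1 at 0.46 (SE 0.15, adjusted p = 0.241).

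The difference between genotypes in the injury response was tested as an interaction, the cKO difference minus the WT difference. All 30 tested members had a negative value, with a median of −0.49 on the log2 scale, against 0.03 over all tested genes. Of all 12868 tested genes, 7055 had a positive value. Mcm5 was called, at −1.16 (SE 0.22, adjusted p = 0.0380), and 0 were called higher, where 0.583% of all tested genes were called lower and 0.295% higher. The call of Mcm5 was lost when WT sham 2, WT sham 3, WT IR 1, cKO IR 1, cKO IR 3 or any cKO sham library was left out, with the filter at a mean of 0.1 FPKM or none, and with voom on the recovered reads. Without cKO IR 2, Tk1 was called beside it. At an unadjusted p under 0.05, 20 of 30 members were lower, against 6.61% of all tested genes. E2f1 came to −0.90 (SE 0.21, adjusted p = 0.0828), Lig1 to −0.90 (SE 0.21, adjusted p = 0.0831) and Tk1 to −0.75 (SE 0.18, adjusted p = 0.0861), and none of these was called. The interaction and both injury comparisons use the same 12 libraries and are not independent of each other.

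**Figure D4:**
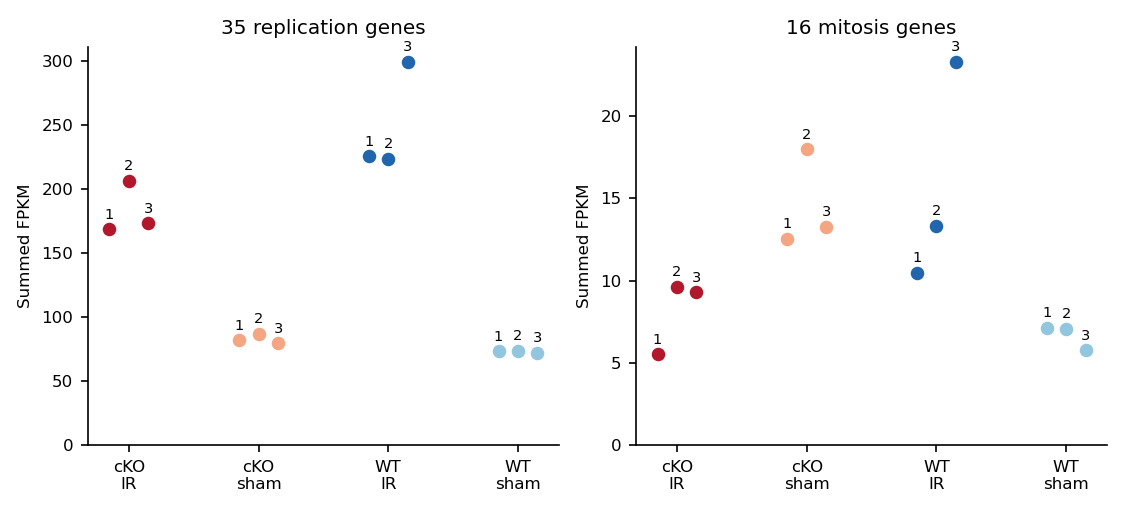
Summed FPKM of the 35 replication genes (left) and of 16 mitosis genes (right) in each library, numbered by replicate, in the order cKO IR, cKO sham, WT IR and WT sham. The left sums are 168 to 206 in cKO IR and 79.3 to 86.9 in cKO sham, and 223 to 299 in WT IR and 72.1 to 73.7 in WT sham.

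Libraries of 1 group differed in their level of the whole set. Summed over the 35 members, cKO IR 1, 2 and 3 had 168, 206 and 173 FPKM, and WT IR 1, 2 and 3 had 225, 223 and 299 FPKM. The sham sums were 79.3 to 86.9 FPKM in cKO sham and 72.1 to 73.7 FPKM in WT sham. cKO IR 2 was the highest of its group in 26 of 35 members, against 31.2% of tested genes, and WT IR 3 in 28 of 35, against 32.8%. The lowest WT IR sum lay above the highest cKO IR sum.

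The genes around the replication machinery moved in part with the members. Of 24 tested genes among 35 others of the replisome and of licensing, 17 were higher and 1 lower in cKO, and 19 higher and 2 lower in WT. Among all tested genes, 27.8% were higher and 23.1% lower in cKO, and 22.6% higher and 19.5% lower in WT. The same shares stand beside the injury counts of each list below. Pold4, the smallest subunit of polymerase delta, differed by 1.97 (SE 0.11, adjusted p = 2.38e-06) in cKO and 1.45 (SE 0.11, adjusted p = 1.74e-05) in WT, and its interaction of 0.52 (SE 0.16, adjusted p = 0.154) was not called. Topbp1, which helps to activate origins, differed by 0.86 in cKO and 1.07 in WT. Rpa2, of the complex that coats single-stranded DNA, differed by 0.99 in cKO and 1.25 in WT. Rnaseh2a, a subunit of the nuclease that removes ribonucleotides from DNA, differed by 0.61 in cKO and 0.46 in WT. Timeless, which protects the fork, was called in cKO sham against WT sham at 0.48 (SE 0.091, adjusted p = 0.0331) and in the interaction at −0.73 (SE 0.13, adjusted p = 0.0286).

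Of 8 tested genes of chromatin assembly at the fork, 6 were higher in cKO and 7 in WT, with 0 lower. Hells, a chromatin remodeler, differed by 1.3 (SE 0.16, adjusted p = 8.24e-05) in cKO and 1.87 (SE 0.16, adjusted p = 2.40e-05) in WT. Dnmt1, the maintenance DNA methyltransferase, differed by 1.05 (SE 0.12, adjusted p = 5.28e-05) in cKO and 1.23 (SE 0.12, adjusted p = 4.87e-05) in WT. Nasp and Chaf1b, both histone chaperones, differed by 0.85 and 0.90 in cKO and by 1.14 and 1.5 in WT. Chaf1a, the partner of Chaf1b, differed by 0.63 in cKO and 0.99 in WT.

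Of 17 tested regulators of G1 and S phase, 9 were higher and 2 lower in cKO, and 12 higher and 2 lower in WT. Myc, a growth-promoting transcription factor, differed by 3.71 (SE 0.26, adjusted p = 4.40e-06) in cKO and 2.46 (SE 0.26, adjusted p = 8.16e-05) in WT. The larger Myc difference in cKO was not called, as 0 of the 17 regulators were called higher in the interaction and 2 were called lower. Cdk6, E2f4 and Tfdp1 differed by 1.46, 1.0 and 0.98 in cKO and by 0.75, 0.67 and 1.01 in WT. Rbl1, a pocket protein that restrains E2F, was called in WT at 0.61 (SE 0.08, adjusted p = 0.000272) and not in cKO at −0.16 (SE 0.08, adjusted p = 0.120), and the interaction was called at −0.77 (SE 0.11, adjusted p = 0.0124). Ccnd1, the D cyclin of G1, was called in the interaction at −1.04 (SE 0.20, adjusted p = 0.0406) and was higher in cKO sham than in WT sham by 0.77 (SE 0.14, adjusted p = 0.0259). Of 8 tested inhibitors of the cell cycle, 3 were higher in each genotype, with 2 lower in cKO and 1 in WT. Their median log2 difference was −0.03 in cKO and 0.11 in WT, but single genes went in both directions. They ranged from −0.48 to 3.15 in cKO and from −0.30 to 2.11 in WT. Cdkn1a, which encodes the p21 inhibitor, had 20.6, 17.1 and 20.05 FPKM in cKO IR, against 1.58, 1.36 and 0.927 FPKM in cKO sham. It had 12.2, 5.57 and 17.96 FPKM in WT IR, against 1.92, 1.85 and 1.49 FPKM in WT sham. It differed by 3.15 (SE 0.30, adjusted p = 2.13e-05) in cKO and by 2.11 (SE 0.30, adjusted p = 0.000425) in WT. The growth-arrest genes Btg2 and Gadd45a differed by 2.64 and 1.01 in cKO and by 0.87 and 1.57 in WT. Cdkn1b, which encodes the p27 inhibitor, was lower in both, by −0.39 in cKO and −0.30 in WT, and Cdkn2c was called lower in cKO, by −0.48. In the interaction 0 of these 8 inhibitors were called, Cdkn1a and Btg2 included, with values from −0.56 to 1.77.

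Mitosis genes, which act after replication, were at low levels, and their sum was lower in cKO IR than in cKO sham. The summed FPKM of 16 such genes was 5.51 to 9.62 in cKO IR and 12.5 to 17.99 in cKO sham, and 10.5 to 23.3 in WT IR and 5.75 to 7.14 in WT sham. Only 3 of the 16 passed the filter. Cdc20 was lower in cKO, by −0.80 (SE 0.21, adjusted p = 0.00901), while Top2a and Mki67 were higher in WT, by 1.05 (SE 0.21, adjusted p = 0.00245) and 0.74 (SE 0.23, adjusted p = 0.0238). In the interaction 0 of the 3 were called, with values from −1.39 to −1.22. All 3 were higher in cKO sham than in WT sham, by 0.66 to 0.85, and 0 of these differences were called.

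Summed markers of other cells are given beside these results. The summed FPKM of 5 neutrophil genes was 17.9 to 26.4 in cKO IR and 2.92 to 3.29 in cKO sham, and 10.7 to 53.4 in WT IR and 1.86 to 2.77 in WT sham. It was highest in WT IR 3, the library with the highest member sum. Among the cKO IR libraries it was highest in cKO IR 3, at 26.4. In cKO IR 2, which had the highest member sum of that group, it was 19.6. For 6 macrophage genes the sum was 36.2 to 49.5 in cKO IR and 20.1 to 32.1 in cKO sham, and 23.2 to 63.6 in WT IR and 27.8 to 33.3 in WT sham. The macrophage sum too was highest in WT IR 3, and among the cKO IR libraries it was highest in cKO IR 2. For 4 stroma genes it was 25.0 to 166 in cKO IR and 31.8 to 48.8 in cKO sham, and 32.2 to 127 in WT IR and 24.3 to 28.8 in WT sham. Of 9 lymphocyte genes only Igkc reached a mean of 1 FPKM, and the summed level was 4.65 to 7.85 in cKO IR and 2.10 to 4.75 in cKO sham, and 4.48 to 10.1 in WT IR and 16.1 to 29.4 in WT sham. Igkc was called lower in cKO sham than in WT sham, with a log2 difference of −3.38, and was called in the interaction at 3.29. Red blood cell genes had another pattern. Of 5 erythroid genes, 0 were called after injury in cKO and 5 were called lower in WT. Their sum was 63.9 to 222 in cKO IR and 194 to 269.9 in cKO sham, and 47.6 to 229 in WT IR and 281 to 906 in WT sham. Their interactions were positive in 5 of 5, with a median of 0.99 on the log2 scale, and 0 of 5 were called. The 4 endothelium genes summed to 21.8 to 58.4 in cKO IR and 42.9 to 47.3 in cKO sham, and 14.3 to 49.5 in WT IR and 35.6 to 45.2 in WT sham. Of the epithelial markers, those of the proximal tubule were lower in the IR libraries of both genotypes than in the sham libraries. For 6 proximal tubule genes the sum was 441 to 753 in cKO IR and 2487 to 3233 in cKO sham, and 683 to 1601 in WT IR and 2921 to 3474 in WT sham. For 5 tubular injury genes, Krt20 among them, it was 12265 to 13884 in cKO IR and 662 to 754 in cKO sham, and 6111 to 10427 in WT IR and 320 to 351 in WT sham. Of these 5, 1 was called higher in cKO sham than in WT sham, against 0.847% of all tested genes. Markers of the thick limb and distal tubule were likewise lower in IR. For 3 such genes the sum was 434 to 693 in cKO IR and 1069.8 to 1637 in cKO sham, and 579 to 983 in WT IR and 1219 to 1351 in WT sham. For 2 collecting duct genes it was 70.1 to 81.1 in cKO IR and 83.4 to 110.4 in cKO sham, and 60.5 to 95.4 in WT IR and 85.9 to 95.9 in WT sham. For 2 podocyte genes it was 18.2 to 28.5 in cKO IR and 24.3 to 33.7 in cKO sham, and 18.7 to 22.3 in WT IR and 25.8 to 27.9 in WT sham. The part of these cells in the replication gene differences was not tested.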

How the data were processed

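RNA sequencing of 12 kidney libraries was analysed from 1 table of FPKM that the authors deposited, with gene lengths and 56748 genes. Per the submitters' processing notes, HISAT2 2.2.1 and the builds mm8 and mm9 were named, without roles; the sources used here name no counting program and no strand setting, and the coordinates carry no build name. Per the labels, libraries were made with a TruSeq RNA kit. The labels' extraction text names retinas, while the tissue field gives kidney. In each library, deposited FPKM times gene length fell on whole steps, within 5.63e-08 of a whole number, which gave the reads; all of 12 columns were mapped by name. The depth limits low genes: 3 reads on a gene model of 1 kb are 0.176 to 0.226 FPKM, for counting error only.

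Values were transformed as log2(FPKM + 1), which understates the change of low genes, and genes averaging 1 FPKM or more (12868) were fitted in limma 3.58.1 (R 4.3.3) with 1 mean per group and a variance trend, 8 residual and 2.59 prior degrees of freedom. All tests were two-sided, with Benjamini-Hochberg adjustment and a threshold of 0.05, and the fit was tested on simulated data. The comparisons were IR against sham in each genotype, cKO against WT in each surgery, and the interaction. Alternatives changed the filter, pseudocount, scaling, moderation, libraries and replicate block, or used voom on the recovered reads. The leave-one-out counts of members without overlap were added after seeing the data.

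The members, the 5 lists of related genes and the 11 marker lists were chosen with earlier results of these data known. In each role, the 3 tested members with the smallest p of either injury comparison are given in full, with Krt20 as a check, every member called between genotypes or in the interaction, and in related lists up to 5 called genes. Rfc2, Cdc20, Ccnd1, Cdkn2c and the members named as lost or largest elsewhere are named by count or extreme, after their values were seen. Promoter windows are from RefSeq (GRCm38.p6), and Mcm4, Gins1, Gins2, Gins4, Ccne2, Pole and Rfc2 were not matched.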

Additional observations from a re-analysis of the deposited data

Results flagged for a closer look

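The injury response of Mcm5 differed between the genotypes by the interaction test. Its log2 difference between IR and sham was 1.75 in cKO and 2.90 in WT, an interaction of −1.16 (SE 0.22, limma adjusted p = 0.038). In cKO the level was 10.3 ± 1.80 FPKM after IR and 2.33 ± 0.280 FPKM in sham, and in WT it was 15.6 ± 3.21 FPKM after IR and 1.21 ± 0.244 FPKM in sham (SD, n = 3 each). The lower response in cKO had 2 parts, a lower level in all 3 cKO IR libraries than in all 3 WT IR libraries and a higher level in all 3 cKO sham libraries than in all 3 WT sham libraries. Neither part was called alone: the log2 difference was −0.56 (adjusted p = 0.178) in IR and 0.60 (adjusted p = 0.115) in sham. Over 22 fits, the interaction of Mcm5 lay between −1.65 and −1.01, with adjusted p of 0.0247 to 0.113, and it was called in 10 of them.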

How the results depend on the processing

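Counts of members called higher after injury changed little. They were 25 to 29 of 29 to 35 tested in cKO under the alternatives that keep all libraries, against 26 as reported, and 20 to 28 when 1 library was left out. In WT they were 30 to 35, against 30 as reported, and 29 to 32 when 1 library was left out. No member was called lower after injury, or in either direction between genotypes within a surgery, in any of these fits. The single member called lower in the interaction, Mcm5, was no longer called with the filter at a mean of 0.1 FPKM (0 members), with no filter (0 members), with voom on the recovered reads (0 members) or with a replicate block (0 members), and leaving out 1 library gave 0 to 2 members. The cause was not tested. Replicate numbers showed no general pairing of the libraries: of 18 pairs with the same number, 4 had a correlation of deviations over 0.1 (range −0.186 to 0.401). The highest was that of WT IR 3 with cKO IR 3, and whether these libraries share a batch was not tested. With the replicate block, 25 members were called higher in cKO and 30 in WT; Pola1 in cKO was the injury call lost. Every member tested had a negative interaction in each of the 22 alternative fits, and members were negative in cKO IR against WT IR in at least 28 cases in each fit. Scaled to library totals, the median log2 difference of all tested genes in WT IR against WT sham moved to 0.13 from 0.01, with 4168 genes called higher and 1844 lower against 2910 and 2514; 32 members passed the filter, and all 32 were above that median. Of the single-gene results over all alternatives, 7 of 690 in WT and 26 of 689 in cKO lost their call and 1 in cKO gained it. The 689 in cKO include those of Mcm10, Pola2, Rfc2 and Tk1, which had no call to lose.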

Other observations

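After the data were seen, a second pattern in the ring subunits was noticed and is given as values with no test. The ratio of the highest to the lowest FPKM among Mcm2 to Mcm7 within a library was 1.36 to 1.70 in cKO IR and 1.87 to 2.09 in cKO sham, and 1.53 to 1.77 in WT IR and 3.67 to 5.36 in WT sham. The 6 subunits assemble in equal numbers, and their RNA levels per length lay closest together in the injured kidneys. These ratios rest on the deposited gene model lengths, which ran from 3589 bases for Mcm4 to 6956 bases for Mcm2. Mcm7, the highest ring gene in WT sham 1 and WT sham 2, overlaps genes at up to 54.5 FPKM, and the part of their reads was not tested. In the GINS complex the same ratio was 9.86 to 12.4 in cKO IR and 15.9 to 23.0 in cKO sham, and 7.62 to 14.4 in WT IR and 23.2 to 38.3 in WT sham. The lowest GINS gene in WT sham was Gins2, at 0.239 to 0.389 FPKM, so those ratios rest on a low value. In the clamp loader, Rfc1 to Rfc5, it was 2.11 to 3.18 in cKO IR and 3.94 to 6.77 in cKO sham, and 2.38 to 3.04 in WT IR and 4.60 to 6.77 in WT sham. In all 3 complexes every IR library had a smaller ratio than every sham library of its genotype.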
